A study of Drosophila melanogaster with 12 samples.

Results

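The CR transcripts are the rows of the deposited count table whose names carry the FlyBase prefix for noncoding genes, CR followed by digits, and this account covers the 342 well-counted ones among 2051 CR rows and 15448 rows in all. They were chosen by a measured value: a raw count of 10 or more in each of the 12 samples. The samples were pools of 12 whole adult *Drosophila melanogaster* females from an outbred baseline population, frozen on day 13 after egg collection. The flies had been reared on isocaloric diets that differ in the amounts of yeast and sugar, and each diet is named by its ratio of protein to carbohydrate (P:C). The lowest ratio was 0.25, followed by 0.4 and 0.55, and 0.7 was the highest, with 3 biological replicates sequenced per diet. The diet at 0.4 has the ratio of the baseline food and served as the reference. The molecule sequenced was polyA RNA from whole bodies, so a difference can come from fewer cells of a type or from less RNA per cell, and these cannot be told apart.

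Long noncoding RNAs are long transcripts that are not known to be translated, many of them polyadenylated and some spliced like messenger RNAs. Many of those annotated in flies run antisense to a coding gene and overlap its exons, while others lie between genes or inside introns. A few are primary transcripts from which microRNAs, short RNAs that repress messenger RNAs by base pairing, or small nucleolar RNAs, which guide the modification of ribosomal RNA, are cut.

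Library totals ran between 6094226 and 13245114 counts, and the well-counted CR transcripts took between 2.20 and 2.67% of each library. Marker genes of several tissues differed across the diets. All 6 muscle markers, all 5 neuronal markers and 3 of 4 midgut markers fell with rising P:C ratio, and 4 of 6 germline markers rose (slope test described below). The summed muscle markers lay between 4474 and 5378 CPM (counts relative to the TMM-scaled library total) at 0.25, between 2060 and 2501 CPM at 0.4, between 1847 and 2778 CPM at 0.55 and between 1355 and 1638 CPM at 0.7. The summed neuronal markers lay between 285 and 355 CPM at 0.25, between 184 and 248 CPM at 0.4, between 191 and 262 CPM at 0.55 and between 132 and 164 CPM at 0.7. The summed germline markers lay between 1566 and 1892 CPM at 0.25, between 2086 and 2194 CPM at 0.4, between 2003 and 2368 CPM at 0.55 and between 2206 and 2430 CPM at 0.7, while none of the 11 eggshell markers and 1 of the 6 fat body markers passed the test. None of the markers of these 6 tissues was at 0 in all libraries. Replicate 3 at 0.55 stood apart in one respect: of the 10 markers of male accessory gland and testis with a row, 9 summed to 10.4 CPM (65 counts) there, against at most 0.642 CPM in the other 11 libraries. The tenth, janB, was left out of this sum, since it was at 52.2 CPM there and between 48.3 and 57.5 CPM in the others. The part that these marker differences take in the differences of the CR transcripts was not tested.

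The rule cuts through a continuum of low counts. Just inside it, CR44069-RA and CR44416-RA had lowest counts of 10 and medians of 21 and 15.5. Just outside it, CR43314-RD and CR44024-RA had lowest counts of 9 and medians of 21 and 24. A further 38 CR rows had a lowest count of 5 to 9, and 1012 of the 1709 CR rows left out had no count in any sample. A row that dropped below 10 in 1 diet could not be chosen. Outside the rule, 72 CR rows could still be tested between 0.7 and 0.25. Of these, edgeR called 12 lower at 0.7 (16.7%) and 0 higher, beside 17.5% and 1.8% of all transcripts. An unadjusted edgeR p under 0.05 was found for 24 of the 72, beside 5039 of 9845 transcripts. DESeq2 called 7 of the 72, beside 1797 of all transcripts.

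The 342 transcripts had mean levels between 1.90 and 13628 CPM, with a median of 11.5 CPM, and 76 lay under 5 CPM. They sat on 3R (79), 3L (70), 2L (67), 2R (62), X (59) and 4 (5). All matched a current gene identifier. Of these, 279 carry the prefix for antisense RNA and 62 that for long noncoding RNA, and CR43051-RC is now annotated as the coding gene CG43051. Their exons summed to between 174 and 15466 bases with a median of 887, and 175 had a single exon.

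Most of the 342 overlapped coding genes. By chromosome, start and end, 310 of the 342 (90.6%) overlapped a coding row, all of them on the opposite strand. Among the CR rows left out, 461 of 1709 (27.0%) did. At the level of exons, 308 shared at least 1 base with an exon of a coding gene, 213 had 50% or more of their exon bases there and 26 had all of them there, with a median of 67.1% over the 342. Coding exons on the opposite strand were met by 301 of the 308, and exons of a coding gene on the same strand by 14. The 34 others, which shared no exon base with a coding gene, are described separately. They include CR43051-RC, and 10 of them overlap the span of a coding row outside its exons.

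The setting for strand in the counting is not given in the sources used here, and the deposited counts bear on it directly. CR45343-RA and Peritrophin-15b-RC, a row for a chitin-binding peritrophic protein on the opposite strand, held the same count in 12 of 12 samples, 21, 26 and 30 at 0.25, 39, 23 and 44 at 0.4, 20, 12 and 10 at 0.55, and 11, 33 and 17 at 0.7. CR45778-RA and dUTPase-RD, the enzyme that clears dUTP from the nucleotide pool, held the same count in 9 of 12 samples. CR45350-RA had a median of 0.999 times the count of Adk2-RA, an adenylate kinase, and CR44095-RA a median of 1.002 times that of Cys-RA, a cystatin-like protease inhibitor. In 10 pairs a CR transcript held every exon base of a coding row with a median count of 10 or more, and in 9 of them its count was at least 0.98 times that of the coding row in all 12 samples. Conversely, 19 CR transcripts, without CR44865-RA described below, lay wholly in exons of 1 coding row with a median count of 10 or more. For these, the ratio of the counts divided by the ratio of the exon lengths had a median of 1.09. It lay between 0.619 and 1.93 in 18 of them and was 183 in CR43425-RB, whose count was between 22.2 and 61.8 times that of unc-13-RD. In the pairs with equal or nearly equal counts, reads of the CR transcript and of the coding gene cannot be told apart.

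The transcript with the largest count kept a steady ratio to its coding row, though not an equal count. CR45601-RA (chrX:10054235-10055109) lies wholly within an exon of Yp1, the yolk protein gene of fat body and follicle cells, and its count was between 0.663 and 0.677 times that of Yp1-RB in every sample. It alone took between 48.2 and 58.8% of all counts of the 342, and without it their share of a library was between 1.02 and 1.17%. CR11538-RC lies opposite Lsp2, a larval serum storage protein, with a median of 0.939 times its count, and CR45926-RA opposite the nucleosome assembly gene Nap1 with a median of 0.911 times.

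**Figure D1:**
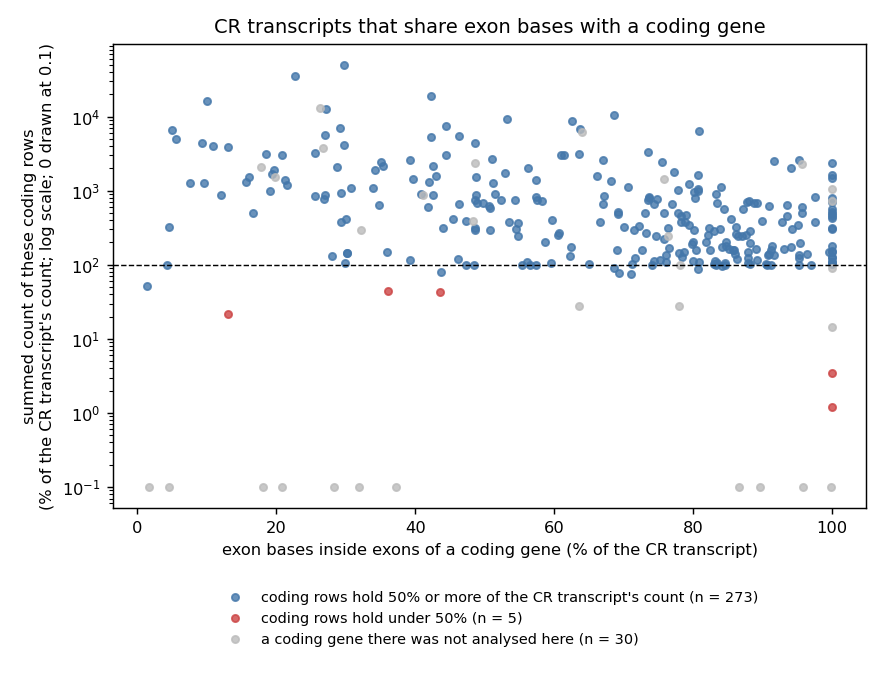
Each point is 1 of the 308 CR transcripts that share exon bases with a coding gene; the x axis gives the share of its exon bases inside coding exons (%) and the y axis, on a log scale, the summed count of the coding rows there as a percentage of its own count, with the dashed line at equal counts. For 272 of them the coding rows held at least as many counts as the CR transcript. Only 5 points are in red, where all coding genes were analysed and their summed count was under 50% of the CR transcript's count.

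The diets were compared in 4 pairs, and a transcript was called at an adjusted p under 0.05 by edgeR's quasi-likelihood test over all transcripts and a change of at least 1.5-fold. At 0.25 against 0.4, 2 of the 342 were called, both higher, against 0.636% of all 9743 transcripts tested. At 0.55 against 0.4, 1 was called, higher, against 0.0415% of all. At 0.7 against 0.4, 9 were called, which is 2.63% of the 342 against 4.4% of all. Of these, 2 were higher and 7 lower, beside 0.577% and 3.82% of all transcripts. At 0.7 against 0.25, 45 were called, 13.2% of the 342 against 19.3% of all. Of these, 7 were higher and 38 lower, where the corresponding shares of all transcripts are 1.8% and 17.5%. With library size alone as the scaling, 13 of 44 calls were higher, so the split between directions leans on the scaling. Under that scaling the median log2 fold change of all transcripts was 0.0988, beside -0.00326 under TMM. The share of all transcripts called in each direction under it is not given here. Of the 45, 22 were called in each of the 6 fits that left out 1 library.

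A slope on the P:C ratio over all 12 samples, with no fold minimum, was called for 82 of the 342, or 24.0% against 36.7% of all transcripts. Of these, 37 rose and 45 fell, beside 17.1% and 19.6% of all. Among the 4 diets, 45 differed (13.2% against 23.1% of all). Whether these shares differ from those of all transcripts was not tested. Their median log2 fold change was -0.02 at 0.7 over 0.25, beside -0.00326 for all transcripts. Without replicate 3 at 0.55, the library with male markers, 75 had a slope, 55 differed among diets and 1 was called at 0.55 against 0.4.

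The 34 transcripts with no coding exon base carried little of the RNA, between 0.0746 and 0.0825% of each library. Their summed level was 791 ± 12.6 CPM at 0.25, 791 ± 3.67 CPM at 0.4, 781 ± 37.1 CPM at 0.55 and 775 ± 5.18 CPM at 0.7 (SD, n = 3 each). Per kilobase of exon, CR40469-RA (chrX:122493-122706) was the highest at 507 CPM per kb, followed by CR32773-RC (chrX:4387676-4611385) at 188 CPM per kb and CR45102-RA at 30.3 CPM per kb. In all, 23 of the 34 had mean levels under 10 CPM. At 0.7 against 0.25, 8 of the 34 were called, 3 higher and 5 lower, beside 19.3% of all transcripts, and 7 of these 8 also had a slope. The 8 fell to 5 without replicate 1 and to 4 without replicate 2 at 0.7. DESeq2 called 6 of the 34, beside 1797 of all transcripts. At 0.25 and at 0.55 against 0.4, edgeR and DESeq2 each called 0 of the 34. The edgeR shares of all transcripts were 0.636% and 0.0415%, and DESeq2 called 222 and 30 of all transcripts. An unadjusted edgeR p under 0.05 was found for 4 and 1, beside 1654 of 9743 and 347 of 9638 transcripts. At 0.7 against 0.4, edgeR called only CR32027-RB, beside 4.4% of all transcripts, and DESeq2 called 0, beside 473 of all transcripts. There, 8 of the 34 had an unadjusted edgeR p under 0.05, beside 3183 of 9705 transcripts. The transcripts named from this group were picked after their values were seen, except CR31781-RI and CR31044-RA.

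CR44922-RA (chr3R:4375084-4377600, a single exon of 2517 bases) had the largest fall of the 5. It had 12.1, 11.6 and 12.6 CPM at 0.25, then 8.63, 6.70 and 9.24 CPM at 0.4, 10.3, 9.55 and 7.50 CPM at 0.55, and 4.53, 3.49 and 6.43 CPM at 0.7. The 3 samples at 0.7 were below the other 9, and those at 0.25 above them. At 0.7 over 0.25 it changed by -1.36 ± 0.23 (SE) on the log2 scale (edgeR adjusted p = 0.0039), and the slope of -2.50 ± 0.56 per unit of P:C (adjusted p = 0.00583) was called in each of the 12 fits that left out 1 library.

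CR31781-RI (chr2L:16869346-16878300, 3 exons) is the best counted of the 8. It had 79.2, 72.6 and 72.6 CPM at 0.25, then 51.2, 44.2 and 74.1 CPM at 0.4, 63.7, 54.3 and 50.9 CPM at 0.55, and 45.1, 37.4 and 49.1 CPM at 0.7. At 0.7 it lay below all samples at 0.25 and at 0.55, whereas the samples at 0.4 spread over most of the range. At 0.7 over 0.25 its log2 fold change was -0.79 ± 0.11 (edgeR adjusted p = 0.00148), and the call was made in 6 of 6 fits without 1 library.

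CR32027-RB (chr3L:18841579-18842786) lies opposite Indy, a citrate transporter of the fat body and midgut, within its span but in none of its exons. It had 7.68, 8.95 and 6.45 CPM at 0.25, then 8.25, 9.58 and 7.89 CPM at 0.4, 8.19, 8.92 and 7.18 CPM at 0.55, and 12.2, 14.0 and 12.4 CPM at 0.7. The 3 samples at 0.7 were above the other 9, which overlapped each other. The log2 fold change was 0.73 ± 0.17 at 0.7 over 0.25 (edgeR adjusted p = 0.0133) and 0.59 ± 0.15 at 0.7 over 0.4 (adjusted p = 0.0473). Indy-RB itself had log2 fold changes of -0.23 and -0.25 in these comparisons (adjusted p = 0.0799 and 0.124). The call against 0.25 was lost without replicate 3 at 0.25 (adjusted p = 0.0527) or replicate 2 at 0.7 (0.0552). The call against 0.4 was lost without replicate 1 or 3 at 0.4 (0.15 and 0.175) or replicate 1 or 2 at 0.7 (0.118 and 0.163).

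CR45923-RA, annotated as dntRL (chr2R:4621118-4622481), followed a like course with 6.35, 6.34 and 8.32 CPM at 0.25, then 7.60, 9.58 and 7.999 CPM at 0.4, 5.80, 6.42 and 9.57 CPM at 0.55, and 11.6, 13.0 and 10.5 CPM at 0.7. Its 3 samples at 0.7 were also above the other 9. Between 0.7 and 0.25 the log2 fold change was 0.71 ± 0.18 (edgeR adjusted p = 0.0174). This call was lost without replicate 1 at 0.25 (0.0523), replicate 1 at 0.7 (0.0504) or replicate 2 at 0.7 (0.071).

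Both remaining calls that are not microRNA precursors were lost in most fits that left out 1 library. CR43253-RB (chr3L:18081121-18087320) had 2.34, 3.35 and 2.65 CPM at 0.7, against 5.46, 5.96 and 4.02 CPM at 0.25, a log2 fold change of -0.87 ± 0.26 (edgeR adjusted p = 0.0315). CR45517-RA (chrX:5428483-5429256) had 3.91, 2.64 and 2.27 CPM at 0.7, against 5.17, 5.09 and 4.96 CPM at 0.25, a log2 fold change of -0.85 ± 0.26 (adjusted p = 0.0321). Neither transcript's samples overlapped between these diets. The call of CR43253-RB was made without replicate 3 at 0.25 but lost without any other library (adjusted p between 0.0534 and 0.095), and that of CR45517-RA was made without replicate 1 at 0.7 but lost without any other (between 0.06 and 0.109). DESeq2 called neither (adjusted p = 0.059 and 0.067).

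**Figure D2:**
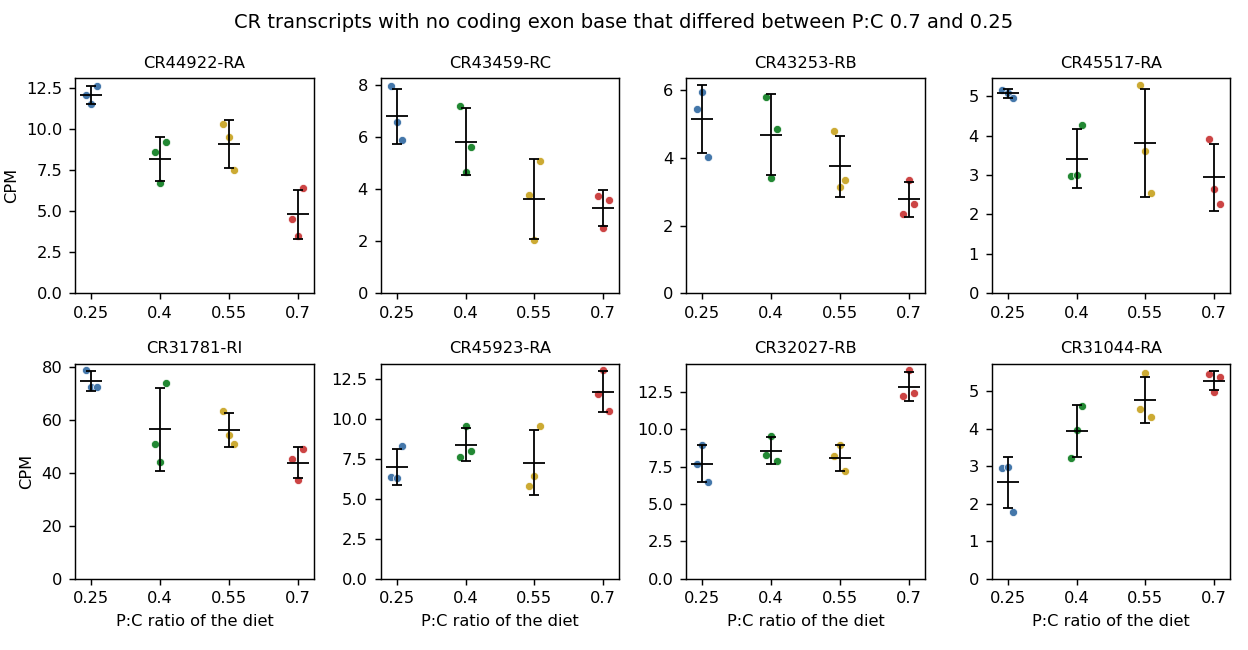
CPM (y axis, linear and starting at 0) of the 8 CR transcripts with no coding exon base that were called between 0.7 and 0.25, against the P:C ratio of the diet (x axis); points are samples, and bars give the mean and SD of 3. In CR44922-RA the samples at 0.7 lie between 3.49 and 6.43 CPM, below the other 9, while in CR32027-RB they lie between 12.2 and 14.0 CPM, above the other 9.

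The most abundant of the 34, CR32773-RC, rose slightly. It had 276, 272 and 269 CPM at 0.25, then 297, 314 and 291 CPM at 0.4, 290, 309 and 307 CPM at 0.55, and 317, 348 and 301 CPM at 0.7, so that every sample at 0.25 was below the other 9. The slope was 0.49 ± 0.14 per unit of P:C (edgeR adjusted p = 0.0165), and it was lost without replicate 1 at 0.25 (0.0584) or replicate 2 at 0.7 (0.0752). At 0.7 over 0.25 the log2 fold change of 0.22 ± 0.07 was under the 1.5-fold minimum. CR40469-RA had a log2 fold change of -0.36 ± 0.12 in that comparison, also under the minimum, and CR31451-RD, annotated as mimi, one of -0.45 ± 0.18 with overlapping samples (adjusted p = 0.0719).

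By the current annotation, 5 of the 34 hold microRNA precursors in an exon on their own strand. CR31044-RA (chr3R:29214562-29219667) holds mir-279 and mir-996, related microRNAs that act in sensory neuron specification. It had 2.95, 2.98 and 1.78 CPM at 0.25, then 3.22, 3.97 and 4.62 CPM at 0.4, 4.54, 5.48 and 4.31 CPM at 0.55, and 5.47, 4.99 and 5.39 CPM at 0.7. All samples at 0.25 were below all others, and the diet means stood in the order of the P:C ratio. The slope of 2.22 ± 0.52 (edgeR adjusted p = 0.0075) was called in 12 of 12 fits without 1 library. The log2 fold change at 0.7 over 0.25 was 1.04 ± 0.26 (adjusted p = 0.0175), a call lost without replicate 3 at 0.25 (0.0659) or replicate 1 at 0.7 (0.0559).

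CR43459-RC (chr3R:10093761-10101356) holds mir-277, a regulator of branched-chain amino acid breakdown, and mir-34, known in flies from ageing of the nervous system, and it moved the other way. It had 7.97, 6.59 and 5.89 CPM at 0.25, then 7.22, 4.65 and 5.63 CPM at 0.4, 3.78, 2.03 and 5.11 CPM at 0.55, and 3.75, 2.50 and 3.59 CPM at 0.7. Every sample at 0.7 was below every sample at 0.25 and at 0.4. The slope was -2.58 ± 0.61 (edgeR adjusted p = 0.00786) and the log2 fold change at 0.7 over 0.25 was -1.09 ± 0.24 (adjusted p = 0.0117), both called in every fit without 1 library.

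The 3 other precursors were not called in any of the 6 edgeR tests. CR46006-RA (mir-276a) had 6.56, 4.56 and 4.82 CPM at 0.7, against 9.45, 6.71 and 6.45 CPM at 0.25, a log2 fold change of -0.54 ± 0.24 (edgeR adjusted p = 0.0975). CR43334-RA, which holds mir-ban (bantam, a growth-promoting microRNA), had 3.44, 2.35 and 2.74 CPM at 0.7, against 4.43, 4.47 and 2.81 CPM at 0.25 (log2 fold change -0.49 ± 0.29, adjusted p = 0.197). CR43650-RA, which holds mir-8, a regulator of insulin signalling and growth, varied most within diets of all 342. It had 34.1, 12.1 and 32.3 CPM at 0.25, then 13.8, 30.4 and 14.4 CPM at 0.4, 26.5, 29.6 and 11.3 CPM at 0.55, and 32.8, 15.3 and 19.8 CPM at 0.7. In each diet high and low samples stood side by side, with a mean coefficient of variation within diets of 0.446. The polyA-selected reads are from the long precursor, and the mature microRNAs were not measured.

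**Figure D3:**
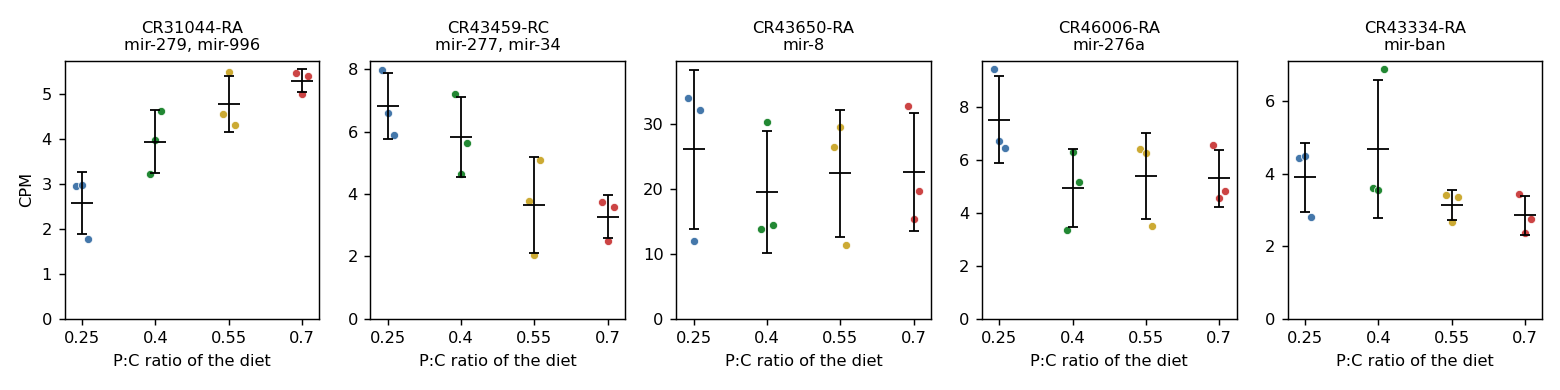
CPM (y axes, linear and starting at 0) of 5 CR transcripts that hold microRNA precursors, named above each panel, against the P:C ratio of the diet (x axes); points are samples, and bars give the mean and SD of 3. CR31044-RA rises with the ratio and CR43459-RC falls, whereas CR43650-RA has samples near 12 and near 30 CPM side by side.

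The largest group, 273 transcripts, shared exon bases with coding genes that were all analysed. The summed whole counts of these coding rows came to 50% or more of the CR transcript's count, whatever the extent of shared bases. How many reads the rows have in common was not measured. In this group 30 of the 273 were called between 0.7 and 0.25, beside 19.3% of all transcripts, and 60 of the 273 had a slope, beside 36.7% of all. For each, the coding row with the highest level was set beside it. At 0.7 over 0.25 the log2 fold changes of the 2 rows had the same sign in 30 of the 30, and the coding row was itself called in 27. For the 60 slopes the sign was the same in 57 and the coding row was called in 53. The 3 of opposite sign were CR44986-RA, CR43430-RA with a slope of 0.59 against -0.11 for hts-RR, and CR46089-RA with -0.98 against 0.28 for CG17119-RA, both of these transcripts named after their values were seen. Over all 273, called or not, the log2 fold changes at 0.7 over 0.25 had the same sign in 238. They differed by at most 0.1 on the log2 scale in 169 and by more than 0.5 in 5, with a median difference of 0.06. The exceptions among the 30 calls were CR44833-RA, CR44975-RA and CR45701-RA, whose coding rows ovo-RB, grp-RB and CG10680-RB had log2 fold changes of 0.35, 0.47 and -0.58, under the 1.5-fold minimum. CR45701-RA, named after its values were seen, lost its call without replicate 1 or 3 at 0.25 or replicate 1 or 2 at 0.7 (adjusted p between 0.102 and 0.151).

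**Figure D4:**
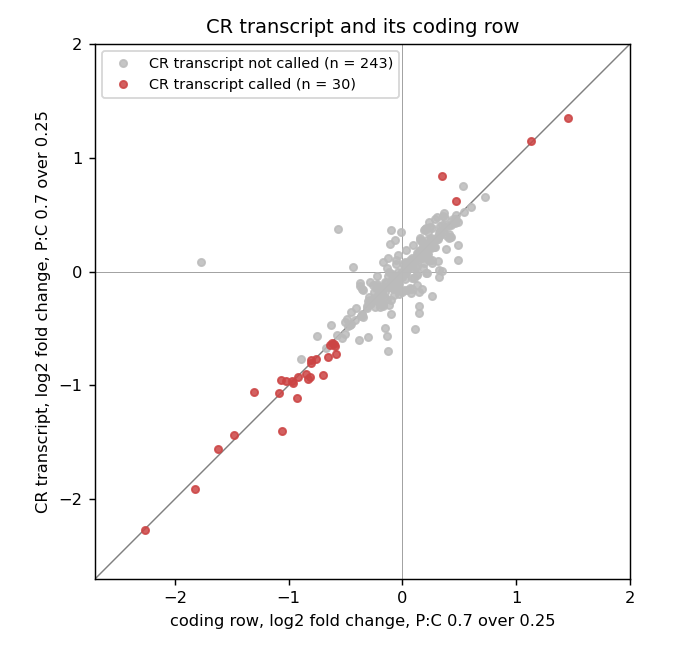
Each point is 1 of the 273 CR transcripts whose coding rows had a summed count of 50% or more of its own. The log2 fold change at P:C 0.7 over 0.25 of the coding row (x axis) is set against that of the CR transcript (y axis). Points are red where the CR transcript was called (n = 30), and the diagonal is in grey. The points follow the diagonal, with CR43417-RB at 0.09 against -1.77 for CG5550-RB as the farthest from it.

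CR45161-RB (chr3L:19989706-19990739) lies opposite fln, the gene of flightin, a myosin-binding protein of flight muscle thick filaments. It had 270, 256 and 269 CPM at 0.25, then 154, 76.6 and 120 CPM at 0.4, 120, 69.6 and 79.9 CPM at 0.55, and 57.5, 50.5 and 58.8 CPM at 0.7. Its samples at 0.25 were above and those at 0.7 below all others. The log2 fold change at 0.7 over 0.25 was -2.28 ± 0.08 (edgeR adjusted p = 1.56e-06), beside -2.26 for fln-RA, and its count was between 0.952 and 0.969 times that of fln-RA. It was also called at 0.25 over 0.4 (1.18 ± 0.21, adjusted p = 0.0476) and at 0.7 over 0.4 (-1.08 ± 0.21, adjusted p = 0.0256). Both calls were lost without replicate 1 or 3 at 0.4. The call at 0.25 over 0.4 was lost without replicate 1 or 3 at 0.25 too, and the call at 0.7 over 0.4 without replicate 1 or 2 at 0.7 (adjusted p between 0.0646 and 0.18 over the 8 fits). The summed muscle markers, fln among them, moved the same way. CR42860-RC, opposite sls, the titin-like protein of the sarcomere, fell too, by 1.40 on the log2 scale at 0.7 against 0.25 (SE 0.19, adjusted p = 0.00134), beside -1.05 for sls-RY.

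CR11538-RC (chr3L:12129103-12131488) was the one called at 0.55 over 0.4. It had 242, 318 and 735 CPM at 0.25, then 467, 587 and 447 CPM at 0.4, 1193, 1163 and 1491 CPM at 0.55, and 1174, 760 and 988 CPM at 0.7. Every sample at 0.55 and 0.7 was above every sample at 0.25 and 0.4. The log2 fold change at 0.55 over 0.4 was 1.36 ± 0.13 (edgeR adjusted p = 0.0104), and it was lost without replicate 1 or 3 at 0.4 (0.104 and 0.106). It was 0.95 ± 0.16 at 0.7 over 0.4 (adjusted p = 0.0151), lost without replicate 1 or 3 at 0.4 or replicate 1 at 0.7 (between 0.061 and 0.0828). At 0.7 over 0.25 it was 1.15 ± 0.37 (adjusted p = 0.0386), called without replicate 3 at 0.25 and lost without any other library (between 0.0623 and 0.114). Lsp2-RB had 1.13 in that comparison, and Lsp2 was the 1 fat body marker of 6 that passed the slope test.

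Among the other pairs, CR45955-RA (chr3L:21636643-21637314) rose with the ratio. It had 47.2, 34.7 and 51.2 CPM at 0.7, against 20.2, 13.0 and 18.0 CPM at 0.25, a log2 fold change of 1.35 ± 0.19 (edgeR adjusted p = 0.00165), with 1.46 for CG32444-RA. CR45024-RA (chr3R:20677080-20677858) had 20.5, 18.4 and 24.6 CPM at 0.7, against 74.0, 48.8 and 61.4 CPM at 0.25, a log2 fold change of -1.56 ± 0.17 (adjusted p = 0.000518), with -1.62 for CG4000-RA. In both transcripts the samples of the 2 diets lay apart. CR45024-RA was also higher at 0.25 than at 0.4 by 0.99 ± 0.15 (adjusted p = 0.0346), a call made without replicate 2 at 0.25 and lost without any other library (between 0.0619 and 0.17).

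CR45015-RA, opposite CG31272, changed by -1.91 ± 0.27 on the log2 scale at 0.7 over 0.25, and CR44703-RA, opposite the chitinase gene Cht9, by -1.07 ± 0.16. Their coding rows changed by -1.82 and -1.09. CR44509-RA changed by -1.44 ± 0.21 opposite Obp56e, an odorant-binding protein (-1.48). CR45479-RA changed by -0.95 ± 0.16 opposite the cytochrome P450 gene Cyp4d14 (-1.07). CR44321-RA, opposite the glycolytic aldolase gene (row Ald-RB, -0.81), CR45281-RB, opposite CG1809 (-0.64), and CR44052-RA, opposite the glucocerebrosidase gene CG31414 (-0.93), changed by -0.93 ± 0.12, -0.65 ± 0.11 and -1.11 ± 0.21. These 7 were called with edgeR adjusted p between 0.00121 and 0.00617. CR45281-RB missed the fold minimum without replicate 1 at 0.25 (-0.57) or replicate 2 at 0.7 (-0.58), and the others were called in each fit without 1 library.

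CR45015-RA, CR44703-RA, CR44865-RA and CR45343-RA were also lower at 0.7 than at 0.4, by log2 fold changes of -1.29, -1.06, -0.59 and -1.19 with edgeR adjusted p of 0.0237, 0.0151, 0.0219 and 0.0429. Each of these calls was lost without replicate 1 or 3 at 0.4 and without replicate 1 at 0.7 (adjusted p between 0.0571 and 0.167), and CR44865-RA missed the fold minimum without replicate 2 at 0.4 (-0.49). Without replicate 2 at 0.7, CR44703-RA, CR44865-RA and CR45343-RA were lost as well (0.0529, 0.0673 and 0.0959), and CR45343-RA was lost without replicate 3 at 0.7 (0.0595). The seventh to fall, CR43615-RA, had a log2 fold change of -0.60 (adjusted p = 0.0387), lost without replicate 1 or 3 at 0.4 or replicate 1 or 2 at 0.7 (between 0.104 and 0.139), and was named after its values were seen.

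**Figure D5:**
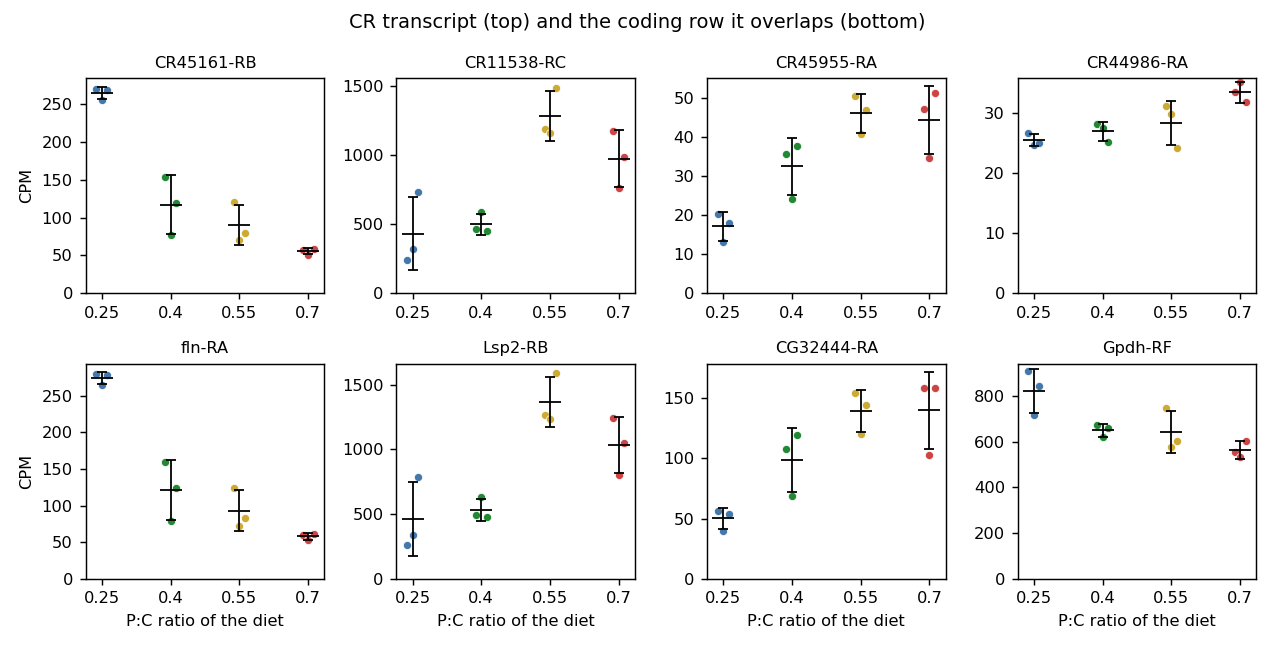
CPM (y axes, linear and starting at 0) of 4 CR transcripts (top) and of the coding row each overlaps (bottom), against the P:C ratio of the diet (x axes); points are samples, and bars give the mean and SD of 3. CR45161-RB, CR11538-RC and CR45955-RA trace fln-RA, Lsp2-RB and CG32444-RA sample by sample, whereas CR44986-RA is highest and Gpdh-RF lowest at 0.7.

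A few transcripts of this group did not follow their coding row. CR44986-RA (chr2L:5947647-5948397) overlaps Gpdh, glycerol-3-phosphate dehydrogenase, and was named after its values were seen. It had 26.7, 24.7 and 25.1 CPM at 0.25, then 28.2, 27.5 and 25.2 CPM at 0.4, 31.1, 29.9 and 24.3 CPM at 0.55, and 33.4, 35.2 and 31.8 CPM at 0.7. Gpdh-RF had 555, 531 and 604 CPM at 0.7, against 907, 714 and 841 CPM at 0.25, so the samples at 0.7 were above those at 0.25 in the CR transcript and below them in the coding row. The slopes were 0.85 ± 0.21 for CR44986-RA (edgeR adjusted p = 0.00967) and -1.11 ± 0.23 for Gpdh-RF (adjusted p = 0.00406), and the difference between them was not tested.

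CR44833-RA spans ovo, a transcription factor gene of the female germline. It had 7.03, 7.34 and 9.84 CPM at 0.7, against 3.69, 4.72 and 4.86 CPM at 0.25, a log2 fold change of 0.84 (edgeR adjusted p = 0.0202). Its samples did not overlap between the 2 diets, and ovo-RB had 0.35. The call was lost without replicate 1 or 3 at 0.25 or replicate 3 at 0.7 (between 0.0518 and 0.0606). CR44975-RA, opposite the checkpoint kinase gene grp, had a slope of 1.35 ± 0.27 (adjusted p = 0.00282), called in 12 of 12 fits without 1 library. Its log2 fold change of 0.62 ± 0.13 at 0.7 over 0.25 dropped under the fold minimum without replicate 1 at 0.25 (0.55) or replicate 2 at 0.7 (0.57). CR45778-RA did follow its coding row: it and dUTPase-RD both had a log2 fold change of 0.46 at 0.7 over 0.25. The slope of CR45778-RA was 0.93 ± 0.22 (edgeR adjusted p = 0.0079). Of the 6 germline markers, 4 had rising slopes too, and their part in these differences was not tested.

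In 5 transcripts the summed count of the coding rows was under 50% of the CR transcript's count. CR44865-RA (chr2L:15610171-15610746) lies wholly in the exons of CG15255, yet the count of CG15255-RB was 1.20% of its own. It had 121, 90.6 and 102 CPM at 0.25, then 83.4, 105 and 86.2 CPM at 0.4, 92.0, 75.7 and 88.6 CPM at 0.55, and 66.6, 54.7 and 62.2 CPM at 0.7. The samples at 0.7 were below the other 9. The log2 fold change at 0.7 over 0.25 was -0.80 ± 0.12 (edgeR adjusted p = 0.00205), called in 6 of 6 fits without 1 library. CR44035-RA, named after its values were seen, overlaps CG8534, whose row had a count of 42.3% of its own. It had 1.87, 1.78 and 4.35 CPM at 0.7, against 8.12, 7.83 and 8.60 CPM at 0.25 (log2 fold change -1.62 ± 0.33, adjusted p = 0.00864), and CG8534-RA had -1.46. CR43425-RB and CR44029-RB, both opposite the synaptic release gene unc-13 on chromosome 4, had mean levels of 189 and 30.8 CPM, and CR45272-RA, opposite Spn53F, had 2.73 CPM.

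A further 30 transcripts overlapped exons of at least 1 coding gene that was not analysed here, so their counts could not be set against it, and 5 of them were called at 0.7 against 0.25, all lower (16.7% against 17.5% of all transcripts). CR45215-RA (chr3R:8316984-8319205) has 18.1% of its exon bases in exons of Ctr1B, a copper transporter. It had 107, 60.6 and 126 CPM at 0.25, then 69.1, 95.6 and 92.5 CPM at 0.4, 49.2, 41.8 and 63.5 CPM at 0.55, and 31.7, 28.2 and 38.2 CPM at 0.7. The samples at 0.7 were below the other 9. The log2 fold changes were -1.60 ± 0.25 at 0.7 over 0.25 (edgeR adjusted p = 0.00237) and -1.40 ± 0.15 at 0.7 over 0.4 (adjusted p = 0.00418), and it was the only one of the 9 calls at 0.7 against 0.4 that was made in 6 of 6 fits without 1 library. Poxm-RC, a transcription factor gene whose row it overlaps outside its exons, held far fewer reads, with CR45215-RA at between 9.29 and 30.6 times its count.

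The 3 transcripts with the smallest p among those that differed among diets without a slope did not move in 1 direction from diet to diet. CR46048-RA, opposite fal, averaged 12.7 ± 1.1 CPM at 0.25, 15.3 ± 1.3 CPM at 0.4, 11.9 ± 1.5 CPM at 0.55 and 18.1 ± 0.23 CPM at 0.7 (SD, n = 3 each). CR43468-RA averaged 23.1 ± 2.2, 19.01 ± 0.38, 22.7 ± 3.7 and 15.3 ± 1.8 CPM at these ratios, and CR45343-RA 3.05 ± 0.22, 4.38 ± 1.1, 2.00 ± 0.47 and 1.89 ± 0.40 CPM. The edgeR adjusted p over the 4 diets was 0.016, 0.0205 and 0.022, and the calls held in 10, 10 and 9 of 12 fits without 1 library. The abundant CR45601-RA and CR45926-RA were called in none of the 6 edgeR tests, with log2 fold changes of -0.20 ± 0.13 and 0.08 ± 0.06 at 0.7 over 0.25. DESeq2 called CR45601-RA among the 4 diets (adjusted p = 0.0436; edgeR 0.0988).

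The noncoding RNAs that carry names of their own stand outside the CR prefix and were listed for comparison. Of 26 on the list, 19 had a row and 10 were counted well enough to be tested. None was called in any of the 6 edgeR tests. Hsromega, the heat shock noncoding RNA, ranged between 106 and 673 CPM, with a slope of 0.31 (edgeR adjusted p = 0.866). Its means were 476 CPM at 0.25, 201 CPM at 0.4, 464 CPM at 0.55 and 436 CPM at 0.7. It varied widely within diets, with 665, 140 and 623 CPM at 0.25. At 0.7 over 0.4 its log2 fold change was 1.12 (edgeR adjusted p = 0.0516). Uhg7, a host of small nucleolar RNAs, ranged between 1783 and 2204 CPM, with a slope of -0.22 (edgeR adjusted p = 0.299). roX1, a noncoding RNA of male dosage compensation, had between 0.547 and 9.16 CPM in these females.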

How the data were processed

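Per the labels and methods, polyA RNA libraries (NEBNext Ultra II) were trimmed with Trim Galore and aligned with HISAT2 to BDGP6, and the authors counted reads over annotated transcripts in SeqMonk. The deposited values are raw counts per transcript, and the strand setting is not given in the sources used here. The CR transcripts and gene lists were chosen with earlier results of these data known. Rows were matched to a BDGP6 annotation for exons and overlaps. The classes by the summed count of coding rows that share exons, with a limit of 50% of the CR transcript's count, were drawn up after the counts were seen.

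Diets were compared with edgeR 4.0.16 in R 4.3.3 (TMM scaling, filterByExpr, quasi-likelihood F test, only the 2 diets compared in a fit; a slope on the P:C ratio and a test among 4 diets over all 12 samples). P-values were adjusted by Benjamini-Hochberg over all transcripts tested, and calls needed an adjusted p under 0.05 and, between 2 diets, a 1.5-fold change. The script was tested on simulated data. CPM are TMM-scaled. A count of 3 was worth between 0.226 and 0.492 CPM. Named transcripts were called CR transcripts with the smallest p (up to 14), the 4 slopes of smallest p each way, the 3 highest, the 4 with counts nearest their coding row, those next to the count limit and 3 without a slope; others are marked. Promoter sequences were not analysed here. DESeq2 1.42.0, other scalings, filters, a replicate block and single left-out libraries were tried as alternatives.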

Additional observations from a re-analysis of the deposited data

How the results depend on the processing

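The count minimum for members gave 380 rows at 5 and 285 at 20, against 342 at 10. Requiring 50% of a member's length left the overlap count within 1.5 times of 310, and counting only same-strand overlaps left 0. At 0.25 over 0.4 the 2 calls became 7 with DESeq2, where the calls among all transcripts went from 62 to 222. They became 1 with DESeq2 size factors, 5 with library size alone, 4 with no filter on low counts, and 5 with all 12 samples in one fit. At 0.55 over 0.4 the 1 call became 2 with DESeq2 (from 4 to 30 among all transcripts) and 0 with all 12 samples. At 0.7 over 0.4 the 9 calls became 15 with no fold minimum, and at 0.7 over 0.25 the 45 became 84 (31 higher). Shares of all transcripts under settings other than DESeq2 are not given here, so these changes cannot be read as particular to the CR transcripts. Under the replicate block the counts were 4 at 0.25 over 0.4 and 16 at 0.7 over 0.4, and within 1.5 times elsewhere. Whether the replicate numbers pair the samples is not given in the sources used here. The deviations of same-numbered samples correlated between -0.34 and 0.34, over 0.1 in 4 of 18 pairs. Differently numbered samples reached -0.40 and 0.44, and these correlations cannot settle the pairing.

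Leaving out 1 library gave between 0 and 6 calls at 0.25 over 0.4 (0 without replicate 1 or 3 of either diet, 1 without replicate 2 at 0.4, 6 without replicate 2 at 0.25) and between 0 and 1 at 0.55 over 0.4 (0 without replicate 1 or 3 at 0.4). It gave between 1 and 18 at 0.7 over 0.4: 1, 3 and 17 without replicates 1, 2 and 3 at 0.7, and 1, 18 and 1 without replicates 1, 2 and 3 at 0.4. It gave between 24 and 44 at 0.7 over 0.25 (24 without replicate 2 at 0.7, 29 without replicate 1 at 0.25). Slopes numbered between 33 and 94 (44 and 54 without replicates 1 and 3 at 0.25, 50 and 33 without replicates 1 and 2 at 0.7). Differences among 4 diets numbered between 19 and 55 (26 and 24 without replicates 1 and 3 at 0.25, 23 and 19 without replicates 1 and 2 at 0.7). The causes were not tested. For the transcripts chosen by the naming rule, 0 values reversed, 62 lost a call and 31 gained one out of 1782 refits. These refits cover the pairs of diets and the slope, without the test among 4 diets. In that test too calls were lost, with CR31044-RA called in 6 and CR31781-RI in 8 of 12 fits without 1 library. Library size alone moved the median log2 slope of all transcripts to 0.19, against 0.05. The promoter motif count was not run. The transcripts with the lowest counts, down to 10 in a sample, were measured with the least precision.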

Other observations

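Other transcripts were searched for levels like those of CR43650-RA, the mir-8 precursor. Over the 12 samples, and among 9009 other transcripts above a mean of 3 CPM, the 2 whose log2 levels ran most like it by Pearson correlation were Pdk-RD, pyruvate dehydrogenase kinase, and CG33054-RB, followed by CG3036-RB. Pdk-RD had 271, 162 and 277 CPM at 0.25, then 154, 233 and 169 CPM at 0.4, 267, 220 and 160 CPM at 0.55, and 213, 185 and 208 CPM at 0.7. CG3036-RB had 320, 175 and 372 CPM at 0.25, then 158, 394 and 181 CPM at 0.4, 313, 280 and 185 CPM at 0.55, and 258, 162 and 201 CPM at 0.7. At 0.25 replicate 2 was the lowest in all 3 transcripts, at 0.4 replicate 2 was the highest, and at 0.55 replicate 3 was the lowest. CG33054-RB ranged between 41.5 and 59.2 CPM. The agreement of these samples follows from the choice, since the transcripts were picked for their likeness, and no correlation is given. What the labels give about the libraries does not set these samples apart, and the cause was not tested.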
